A study of Mus musculus with 8 samples.

Results

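The effect of α-ketoglutarate on top of the α-synuclein virus was read from 4 of the 8 RNA-seq libraries of the series, the 2 of mice given AAV-α-synuclein (here the vector group) and the 2 of mice given AAV-α-synuclein+AKG (the combined group). The libraries were chosen by treatment label alone, and no control library entered the comparison. All were made from RNA of the substantia nigra of male C57BL/6 mice, and the adeno-associated virus (AAV) carrying α-synuclein was shared by both groups. α-Ketoglutarate (AKG) was given in the diet according to the series title, and the other groups were wild-type controls and mice given AKG without a named virus. The labels used here give no age, dose, time, AAV promoter or serotype. They do not say whether the 2 libraries of a group came from separate animals, so p-values measure only the spread between these samples, which may be technical.

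AKG is the intermediate of the tricarboxylic acid (TCA) cycle made by isocitrate dehydrogenase and used by the oxoglutarate dehydrogenase complex. It is linked to glutamate by aminotransferases and glutamate dehydrogenase, and it is the co-substrate of dioxygenases that hydroxylate or demethylate proteins, DNA and RNA. The substantia nigra holds dopamine neurons, which make dopamine with tyrosine hydroxylase (Th) and dopa decarboxylase (Ddc), load it into vesicles with Slc18a2 and take it back up with Slc6a3. These neurons are lost in Parkinson's disease, in which α-synuclein aggregates.

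The 4 libraries held 16544190 to 19125423 reads on genes, and in each of them 13619 to 13727 genes were at or above 1 FPKM (fragments per kilobase of gene, scaled to library size). Replicates differed beyond counting error in both groups, by a chi-square of 10.5 per degree of freedom between the vector libraries and 28.7 between the combined libraries. Across genes, Spearman's rho was 0.972 between the combined libraries, 0.984 between the vector libraries and 0.975 to 0.987 between libraries of different groups. The first principal component held 52.9% of the variance and set combined library 2 at 25.2 against -12.6 for combined library 1 and -4.87 and -7.64 for the vector libraries. Combined library 2 also held far more choroid plexus RNA. Of the 19 markers listed, the 18 with deposited values summed to 5466 FPKM there and to 118 in combined library 1. They summed to 117 and 2278 in the vector libraries, and none of the 18 was at 0 in all 4 libraries. Its part in the other differences was not tested, and list medians are therefore given for each combined library on its own.

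No gene passed the test between the groups. Of 13716 genes whose mean reached 1 FPKM, 0 (0%) had an adjusted p under 0.05 in limma's two-sided test on log2(FPKM + 1), and voom on reads recovered from the table called 0 too. An unadjusted p under 0.05 was found for 297 genes (2.17%), of which 192 were higher in the combined group (1.4% of the tested genes) and 105 lower (0.766%). This excess of higher genes was not seen with a gene length trend removed, where 184 were higher and 196 lower, nor without combined library 2, where 188 were higher and 210 lower. With voom, 171 genes had an unadjusted p under 0.05, and 686 of 13716 would fall under it if p-values were uniform. Both combined libraries lay above both vector libraries for 12.9% of genes and below both for 11.4%. The difference was positive for 52.3% of genes and negative for 47.7%, with a median of 0.01 on the log2 scale. Below, levels are in FPKM and differences are combined minus vector on the log2(FPKM + 1) scale, as estimate ± standard error, a scale that understates the change of low genes. In this bulk tissue, fewer cells of a type and less RNA per cell cannot be told apart.

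Among dopamine neuron genes, the transporter Slc6a3 was higher in the combined group in both libraries, whereas the genes for dopamine synthesis and vesicle loading lay close to the vector group. Slc6a3 (chromosome 13, 73536747 to 73578672, plus strand, GRCm38) was at 1.43 and 3.87 FPKM in the vector libraries and at 4.99 and 11.9 in the combined libraries. The groups did not overlap, but the higher vector library and the lower combined library were near each other. The log2 difference was 1.36 ± 0.46, with an unadjusted p of 0.0278 and an adjusted p of 1 in limma, and with combined library 1 alone it was 0.80. Both combined libraries stayed below the controls, at 24.1 and 28.5 FPKM, and above the mice given only AKG, at 0.801 and 0.615.

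Th was at 12.6 and 16.1 FPKM in the vector libraries and at 14.6 and 16.6 in the combined libraries, so the groups overlapped and the log2 difference was 0.12 ± 0.14. In controls Th was at 38.9 and 38.8 FPKM and with AKG alone at 10.7 and 10.4. Ddc was at 9.74 and 10.6 in the vector libraries and at 11.5 in each combined library, a log2 difference of 0.17 ± 0.09. Neither enzyme passed the test, and the combined libraries remained far below the control level of Th. Slc18a2 was at 7.28 and 8.30 FPKM in the vector libraries and at 7.40 and 6.35 in the combined libraries, with overlap and a log2 difference of -0.16 ± 0.12. Slc10a4, a vesicular transporter-like protein of monoamine and cholinergic neurons, was at 1.42 and 1.96 against 1.86 and 4.86, with combined library 2 alone above the vector libraries.

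Of the 23 dopamine neuron markers listed, 16 were tested, and Th, Ddc, Slc18a2 and Slc6a3 were detected in each of the 4 libraries. The difference was positive for 11 and negative for 5. The groups did not overlap upwards for 2 genes (12.5%, against 12.9% of all tested genes) and downwards for 1 (6.25%, against 11.4%), which is near or below the background. The median was 0.10, with 0.07 for combined library 1 and 0.10 for library 2, and it was 0.01 without vector library 1. The summed FPKM of the list was 137 and 143 in the vector libraries, 146 and 155 in the combined libraries, 127 and 133 with AKG alone and 219 and 233 in controls.

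**Figure D1:**
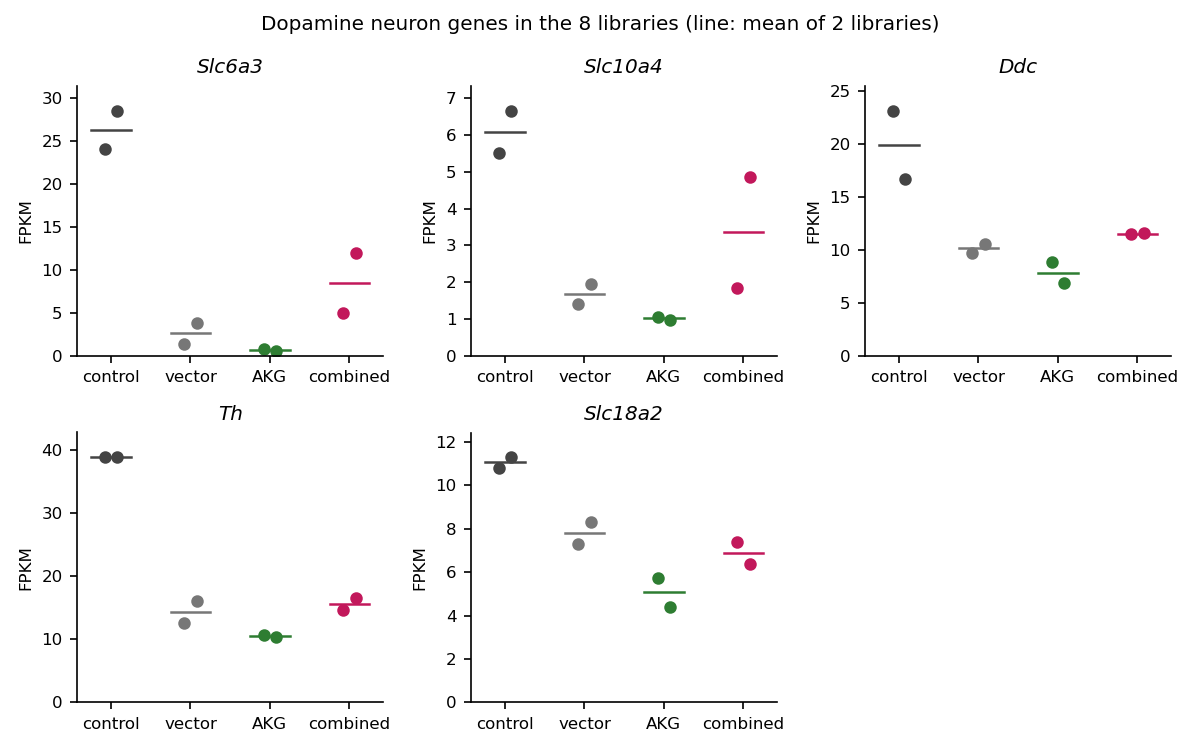
FPKM of 5 genes in the 8 libraries (vertical axis, linear from 0), with each point 1 library and each line the mean of 2 libraries, by group on the horizontal axis. Slc6a3 is higher in both combined libraries (4.99 and 11.9 FPKM) than in both vector libraries (1.43 and 3.87), while Th, Slc10a4 and Slc18a2 overlap between these groups.

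Whether the AKG-associated difference depended on the virus was examined with a limma contrast over all 8 libraries, combined minus vector less AKG minus control. No gene of 13716 passed it at an adjusted p under 0.05 (0%), and 998 (7.28%) had an unadjusted p under 0.05. The contrast was 5.35 ± 0.59 for Slc6a3 (adjusted p 0.283) and 1.90 ± 0.19 for Th (adjusted p 0.276). In both genes the 2 AKG libraries lay below both controls, while in the groups with virus Slc6a3 was higher and Th overlapped. Control library 1 stood apart from the other 7, and without control library 2 the contrast rested on library 1 alone and called 1369 genes, Slc6a3 (adjusted p 0.0202) and Th (adjusted p 0.0176) among them.

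The genes that make and use AKG were near their vector levels. Of 43 tested genes of the TCA cycle and AKG metabolism, 25 had a positive and 18 a negative difference, the groups did not overlap for 6 in each direction (13.9% each, against 12.9% and 11.4% of all tested genes), and the median was 0.04, with -0.04 for combined library 1 and 0.13 for library 2. Ogdh, the first subunit of the oxoglutarate dehydrogenase complex, was at 56.6 and 57.9 FPKM in the vector libraries and at 55.4 and 55.6 in the combined libraries. Idh1, cytosolic isocitrate dehydrogenase, was at 21.6 and 21.1 against 21.0 and 19.2, and Glud1, glutamate dehydrogenase, at 107 and 105 against 103 and 99.6. All 3 were lower in both combined libraries by a small amount. Of the 43 genes, 1 had an unadjusted p under 0.05 in limma, against 2.17% of all tested genes. It was the alanine aminotransferase Gpt, which converts alanine and AKG to pyruvate and glutamate. Gpt was at 5.01 and 4.59 FPKM in the vector libraries and at 5.78 and 6.58 in the combined libraries, above both, with a log2 difference of 0.31 ± 0.11 (unadjusted p 0.0357, adjusted p 1). D2hgdh, which oxidises D-2-hydroxyglutarate back to AKG, was at 3.64 and 3.89 against 3.16 and 2.77, below both, with a difference of -0.27 ± 0.12.

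Dioxygenases that use AKG showed no gene at an unadjusted p under 0.05. Of 43 tested, 15 differences were positive and 28 negative, with a median of -0.03 that was 0.03 for combined library 1 and -0.08 for library 2. It was -0.07 without vector library 1 and 0.01 without vector library 2. Bbox1, the last enzyme of carnitine synthesis, was at 3.54 and 3.13 FPKM in the vector libraries and at 2.63 and 2.45 in the combined libraries. P4ha2, a collagen prolyl hydroxylase subunit, was at 3.79 and 3.41 against 3.02 and 3.03. Both lay below the vector libraries in both combined libraries, with differences of -0.29 ± 0.12 and -0.19 ± 0.11.

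Signalling and degradation pathways that have been tied to AKG were likewise close to the vector group. Of 51 mTOR and AMPK genes 17 were higher and 34 lower, with a median of -0.02 that was 0.01 for combined library 1 and -0.04 for library 2. Of 53 autophagy genes 28 were higher and 25 lower, with a median of 0.01 over both and for each combined library. The mTORC1 activator Rheb was at 17.5 and 16.8 FPKM in the vector libraries and at 17.6 and 17.9 in the combined libraries. The autophagy receptor Sqstm1 was at 204 and 195 against 197 and 214, and Map1lc3b, which encodes the LC3 protein of autophagosome membranes, at 32.8 and 28.2 against 27.9 and 32.8. The groups overlapped for Sqstm1 and Map1lc3b and were set apart by a narrow margin for Rheb. Ddit4, a stress-induced inhibitor of mTORC1, was at 26.8 and 19.0 FPKM in the vector libraries and at 36.0 and 29.4 in the combined libraries. It was above both vector libraries in both, with a difference of 0.51 ± 0.19 (unadjusted p 0.037, adjusted p 1). Sesn2, another mTORC1 inhibitor, was at 5.69 and 5.54 against 4.95 and 4.86, with a difference of -0.16 ± 0.10.

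Lysosomal genes were more often above than below the vector group, mainly in combined library 2. Of 54 tested, 41 differences were positive and 13 negative, 12 did not overlap upwards (22.2%, against 12.9% of all tested genes), and none had an unadjusted p under 0.05. The list median was 0.06, with -0.03 for combined library 1 and 0.15 for library 2. The cysteine protease cathepsin S gene Ctss was at 59.6 and 46.7 FPKM in the vector libraries and at 64.0 and 65.1 in the combined libraries, a difference of 0.29 ± 0.14. Laptm5, a lysosomal membrane protein of immune cells, was at 7.25 and 7.79 against 8.60 and 9.21, a difference of 0.22 ± 0.10. Both genes are expressed by microglia, and both were above the vector group in each combined library. Of 35 genes of polyunsaturated fatty acid and docosahexaenoic acid metabolism, 20 were higher and 15 lower, with a median of 0.01, of 0.00 for combined library 1 and 0.02 for library 2. It was -0.04 without vector library 2. Among them the desaturase Fads2 was at 123 and 126 FPKM against 114 and 126, and the elongase Elovl5 at 32.02 and 29.6 against 29.7 and 30.6.

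Genes of cholesterol and fatty acid synthesis were mostly lower in the combined group by small amounts, in both combined libraries. Of 32 tested, 27 differences were negative and 5 positive, 11 lay below the vector group without overlap (34.4%, against 11.4% of all tested genes) and 0 above it, and the median was -0.09, with -0.07 for combined library 1 and -0.15 for library 2. Of the 32 genes, 1 had an unadjusted p under 0.05 in limma, against 2.17% of all tested genes. It was Msmo1, which removes methyl groups from sterols. It was at 16.6 and 17.3 FPKM in the vector libraries and at 14.8 and 12.7 in the combined libraries, a difference of -0.29 ± 0.11 (unadjusted p 0.042, adjusted p 1). Fdft1, squalene synthase, was at 29.9 in each vector library and at 26.0 and 26.6 in the combined libraries. Hmgcs1, which makes the HMG-CoA from which mevalonate is formed, was at 44.8 and 44.2 against 42.4 and 36.2. All 3 genes were below both vector libraries in both combined libraries, with differences of -0.18 ± 0.09 for Fdft1 and -0.18 ± 0.11 for Hmgcs1.

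Promoters of 2 of these genes are shown because members of the list lay on the same side of the vector group, and Hmgcs1 was chosen for display after its values were seen. Each sequence runs from 250 bases before to 50 after the RefSeq gene start on GRCm38.p6, read 5′ to 3′ on the gene's strand. Hmgcs1 is from chr13:119690101-119690400 (plus strand) and Msmo1 from chr8:64733529-64733828 (minus strand). Capitals mark TCACNCCAC, a form of the sterol regulatory element, and CCAAT, the box bound by NF-Y, on either strand (ATTGG is CCAAT on the other strand), and these motifs did not overlap in either sequence.
Hmgcs1: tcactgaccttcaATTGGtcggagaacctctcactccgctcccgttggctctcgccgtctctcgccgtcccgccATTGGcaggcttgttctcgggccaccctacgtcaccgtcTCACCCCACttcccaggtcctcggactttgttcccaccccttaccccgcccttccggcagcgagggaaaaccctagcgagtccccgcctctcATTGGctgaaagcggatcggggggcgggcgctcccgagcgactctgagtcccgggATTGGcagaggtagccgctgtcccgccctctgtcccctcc
Msmo1: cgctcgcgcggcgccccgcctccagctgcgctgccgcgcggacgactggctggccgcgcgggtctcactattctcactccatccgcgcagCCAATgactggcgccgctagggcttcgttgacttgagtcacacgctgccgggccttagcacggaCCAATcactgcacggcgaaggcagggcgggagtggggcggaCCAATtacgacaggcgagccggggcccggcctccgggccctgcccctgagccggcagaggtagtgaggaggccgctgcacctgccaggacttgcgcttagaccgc
The Hmgcs1 promoter held 1 TCACNCCAC and 4 CCAAT, and the Msmo1 promoter 3 CCAAT and 0 TCACNCCAC. Of the 24 tested list members with a promoter in the table, 22 (91.7%) held CCAAT in at least 1 promoter, against 41.1% of 27025 genes and 37.4% of 32851 promoters. TCACNCCAC was found for 1 of the 24 (4.17%), against 1.44% of genes and 1.24% of promoters. These matches describe letters in the window and are no measure of binding. The shares describe the list and not the difference between the groups, and lower members were not compared with the other members.

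Some markers of blood vessel endothelium lay above the vector group in both combined libraries. At an unadjusted p under 0.05 in limma, 4 of the 20 tested were higher, against 1.4% of all tested genes. Of 20 tested, 16 differences were positive, 8 did not overlap upwards (40% against 12.9% of all tested genes) and 1 downwards (5% against 11.4%), and the median was 0.12. The median was 0.01 for combined library 1, with 10 of 20 genes above the vector mean, and 0.16 for library 2, with 19 of 20. Ly6a, which encodes the surface protein Sca-1, was at 31.8 and 33.4 FPKM in the vector libraries and at 43.7 and 47.4 in the combined libraries, with a difference of 0.47 ± 0.10 (unadjusted p 0.00377, adjusted p 1). Its relative Ly6c1 was at 36.2 and 34.7 against 45.8 and 53.2, with a difference of 0.47 ± 0.11. Both were above the vector group in each combined library, and both are members of a gene family of similar sequence, so their reads may be shared in part. Vwf, von Willebrand factor, was at 2.20 and 1.88 against 3.53 and 3.07, and Tek, the angiopoietin receptor, at 3.495 and 2.45 against 4.58 and 4.19. Their differences were 0.50 ± 0.13 and 0.45 ± 0.16, with unadjusted p of 0.00938 and 0.0309 in limma. With AKG alone the 4 genes did not separate from the controls: Ly6a was at 30.9 and 41.1 FPKM against 39.3 and 41.8 in controls.

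Interferon-stimulated genes were higher for some members. Of 22 tested of 30 listed, 16 differences were positive and 6 negative, 8 did not overlap upwards (36.4%, against 12.9% of all tested genes) and 1 downwards (4.55%, against 11.4%), and the median was 0.09, with 0.03 for combined library 1 and 0.14 for library 2. Without vector library 1 the list median was -0.01, and without vector library 2 it was 0.24. Ifitm2, a membrane protein that restricts virus entry, was at 5.05 and 6.48 FPKM in the vector libraries and at 9.04 and 9.73 in the combined libraries, a difference of 0.63 ± 0.13 (unadjusted p 0.00398, adjusted p 1). Ifit3, an antiviral RNA-response protein, was at 5.34 and 6.51 against 7.76 and 8.17, a difference of 0.38 ± 0.12 (unadjusted p 0.022). Ifitm3 was at 20.9 and 18.2 against 22.5 and 31.8. All 3 lay above both vector libraries, but control library 1 reached 17.9, 14 and 51.6 FPKM for Ifitm2, Ifit3 and Ifitm3, above every combined library. Control library 2 was at 4.48, 8.26 and 26.1 FPKM for the same genes. That was below both vector libraries for Ifitm2, above both combined libraries for Ifit3 and between the combined libraries for Ifitm3. Ifitm2 and Ifitm3 are near relatives, so reads may be shared between them.

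The promoters of Ifit3 (chr19:34583279-34583578, plus strand) and Ifitm2 (chr7:140955912-140956211, minus strand) are shown as the 2 interferon genes at an unadjusted p under 0.05, from the same RefSeq table. These are 2 of 22 tested, both higher, against 1.4% of all tested genes. Capitals mark GAAA, any 2 bases and GAAA, a core of the interferon-stimulated response element, on either strand (TTTC, 2 bases and TTTC on the other strand).
Ifit3: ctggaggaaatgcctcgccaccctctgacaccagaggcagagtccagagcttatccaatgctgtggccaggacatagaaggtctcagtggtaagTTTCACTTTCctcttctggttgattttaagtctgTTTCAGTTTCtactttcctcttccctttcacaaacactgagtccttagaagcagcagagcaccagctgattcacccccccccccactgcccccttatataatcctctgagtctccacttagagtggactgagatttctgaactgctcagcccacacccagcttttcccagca
Ifitm2: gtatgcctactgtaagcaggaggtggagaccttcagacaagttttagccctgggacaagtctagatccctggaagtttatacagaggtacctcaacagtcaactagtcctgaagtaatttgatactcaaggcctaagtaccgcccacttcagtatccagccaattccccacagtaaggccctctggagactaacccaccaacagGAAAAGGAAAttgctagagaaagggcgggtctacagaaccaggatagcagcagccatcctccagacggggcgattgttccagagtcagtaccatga
This motif was found 2 times in the Ifit3 window and 1 time in that of Ifitm2. It was present for 10 of 18 tested interferon genes with a promoter in the table (55.6%), against 3.99% of all genes and 3.44% of all promoters, which describes the list and not the difference between the groups.

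**Figure D2:**
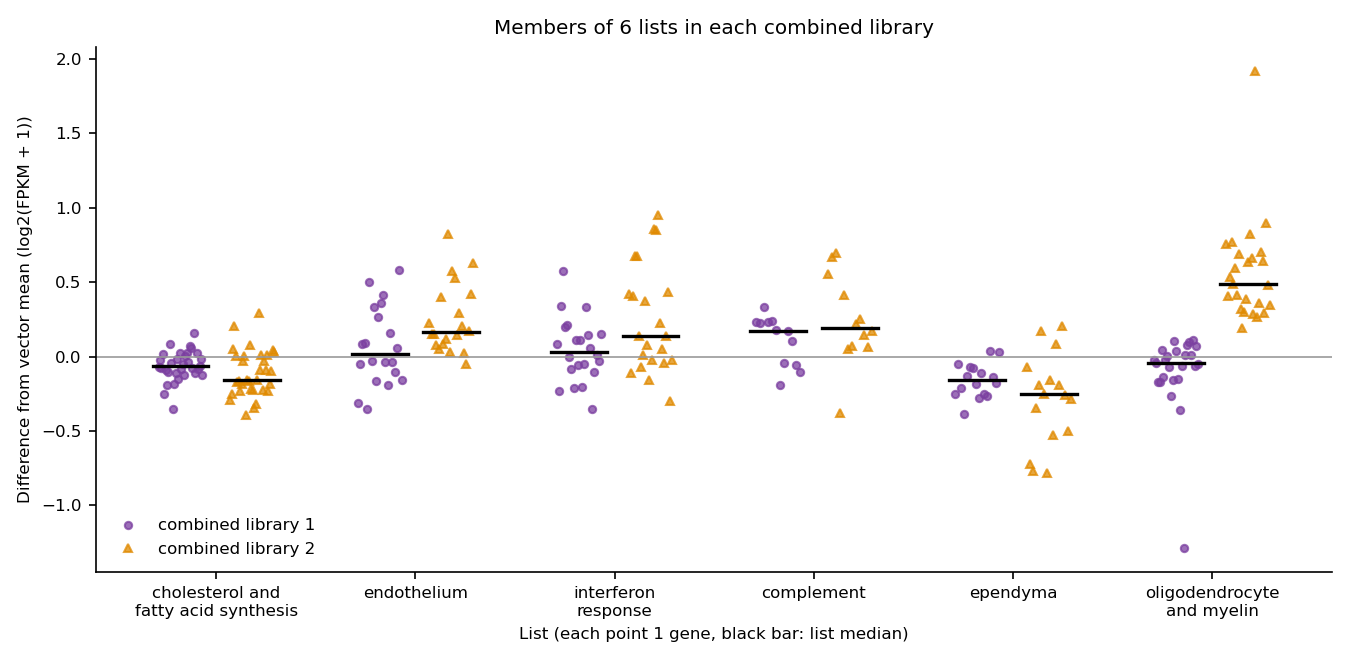
Difference of each gene from the mean of the 2 vector libraries (vertical axis, log2(FPKM + 1)) in 6 lists (horizontal axis), for combined library 1 (circles) and combined library 2 (triangles), with black bars at the list medians. Cholesterol and ependyma genes lie mostly below 0 in both libraries, complement genes mostly above 0 in both, and myelin genes are centred at -0.04 in library 1 and 0.49 in library 2.

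Several complement genes and the astrocyte gene Gfap also lay above the vector group. Of 12 complement genes tested of 20 listed, 10 differences were positive, 5 did not overlap upwards (41.7%, against 12.9% of all tested genes) and 0 downwards, and the median was 0.12, with 0.17 for combined library 1 and 0.19 for library 2. C4b, complement component 4, was at 6.80 and 7.14 FPKM in the vector libraries and at 8.40 and 9.61 in the combined libraries, a difference of 0.33 ± 0.11 (unadjusted p 0.0247, adjusted p 1). C1qa, a chain of C1q that microglia make, was at 55.9 and 46.2 against 59.8 and 75.1, a difference of 0.39 ± 0.16. C1qc was at 27.6 and 18.6 against 28.8 and 37.5, a difference of 0.51 ± 0.22. The third chain, C1qb, was at 56.8 and 40.8 against 56.4 and 77.0, with overlap. For all 3 chains combined library 1 was close to vector library 1. C1qa was at 98.7 and 69.7 FPKM in controls and at 52.0 and 66.7 in the mice given AKG alone. Gfap, the intermediate filament that reactive astrocytes make in excess, was at 45.3 and 44.2 against 51.1 and 66.3, a difference of 0.37 ± 0.14 (unadjusted p 0.0442), with controls at 157 and 75.7. Of 19 reactive astrocyte markers 10 were higher and 9 lower, with a median of 0.02, of 0.05 for combined library 1 and 0.04 for library 2.

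Microglial genes depended on the library. The phagocyte markers Cd68 and Lyz2 were above the vector group in both combined libraries, Cd68 at 4.14 and 4.87 against 4.91 and 6.67 FPKM and Lyz2 at 8.73 and 6.09 against 9.39 and 9.82. Their differences were 0.29 ± 0.16 and 0.35 ± 0.17, and neither had an unadjusted p under 0.05. Aif1, which encodes the microglial protein Iba1, was at 3.04 and 1.92 against 2.49 and 3.10, with overlap. Of 16 tested genes of disease-associated microglia, Cd68 and Lyz2 among them, 15 had a positive difference. The groups did not overlap upwards for 4 (25%, against 12.9% of all tested genes), but the median was 0.02 for combined library 1 and 0.42 for library 2. Of 15 tested homeostatic markers, 12 had a positive difference and 4 did not overlap upwards (26.7%). Their median was -0.004 for combined library 1 and 0.195 for library 2.

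Most markers of the ciliated ependymal cells that line the ventricles had negative differences in both combined libraries. Of 16 tested of 20 listed, 14 differences were negative, 8 lay below the vector group without overlap (50% against 11.4% of all tested genes) and 0 above it, and the median was -0.21, with -0.16 for combined library 1 and -0.25 for library 2. The summed FPKM of the 20 listed markers was 112 and 94.3 in the vector libraries and 89.0 and 81.3 in the combined libraries. It was 92.7 and 126 with AKG alone and 320 and 92.3 in controls, and Mia was at 0 in all 4 compared libraries. Rarres2, which encodes the secreted protein chemerin, was at 7.55 and 5.66 FPKM against 4.77 and 4.93, a difference of -0.37 ± 0.14 (unadjusted p 0.0464). Tmem212 was at 13.9 and 10.9 against 10.5 and 6.80, a difference of -0.49 ± 0.21. The cilium gene Ak7, an adenylate kinase, was at 3.75 and 4.42 against 3.46 and 1.95, a difference of -0.48 ± 0.21. All 3 were lower in both combined libraries, and by a narrow margin in combined library 1 for Tmem212 and Ak7. Choroid plexus genes, from the tissue next to the ependyma, were below the vector mean for 17 of 17 in combined library 1 and above it for 17 of 17 in library 2. Their median was -1.03 in library 1 and 1.83 in library 2, and -0.56 over both without vector library 1.

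The hypothalamus lies outside the substantia nigra, and genes of a list of hypothalamic and neuropeptide markers had mostly negative differences, chiefly in combined library 2. Of 19 tested, 16 differences were negative and 4 did not overlap downwards (21.1%, against 11.4% of all tested genes), and the median was -0.23, with -0.04 for combined library 1 and -0.34 for library 2. Hcrt, the orexin precursor, was at 224 and 167 FPKM in the vector libraries and at 116 and 163 in the combined libraries, a difference of -0.49 ± 0.22. Unlike the list, Hcrt was lower mainly in combined library 1, by -0.73 against -0.25 for library 2. Hdc, which makes histamine, was at 5.33 and 5.03 against 4.38 and 3.88, a difference of -0.27 ± 0.11. Oxt, oxytocin, overlapped, at 315 and 282 against 359 and 95.4 FPKM. RNA of Hcrt, Hdc and Oxt was present in all 4 libraries. Whether it came from neighbouring regions, and the part of such RNA in the other differences, was not tested.

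The differences of several large lists came from combined library 2. Myelin genes had a positive difference for 24 of 25, yet their median was -0.04 for combined library 1 and 0.49 for library 2, and Mbp, myelin basic protein, was at 519 and 442 FPKM in the vector libraries and at 472 and 811 in the combined libraries. Nuclear genes of the respiratory chain were higher for 65 of 72, with medians of -0.05 and 0.32, and ribosomal protein genes for 64 of 78, with medians of -0.07 and 0.29. The haemoglobin gene Hbb-bs was at 121 and 88.7 against 110 and 176, and Ttr, transthyretin from the choroid plexus, at 44.0 and 1959 against 53.4 and 4857. For Mbp, Hbb-bs and Ttr combined library 1 lay between the 2 vector libraries and combined library 2 above them, so the groups overlapped. Library 2 also favoured short genes, with a Spearman's rho of -0.17 between gene length and its deviation from the mean of all libraries, against 0.47 for combined library 1 and 0.26 and 0.45 for the vector libraries.

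**Figure D3:**
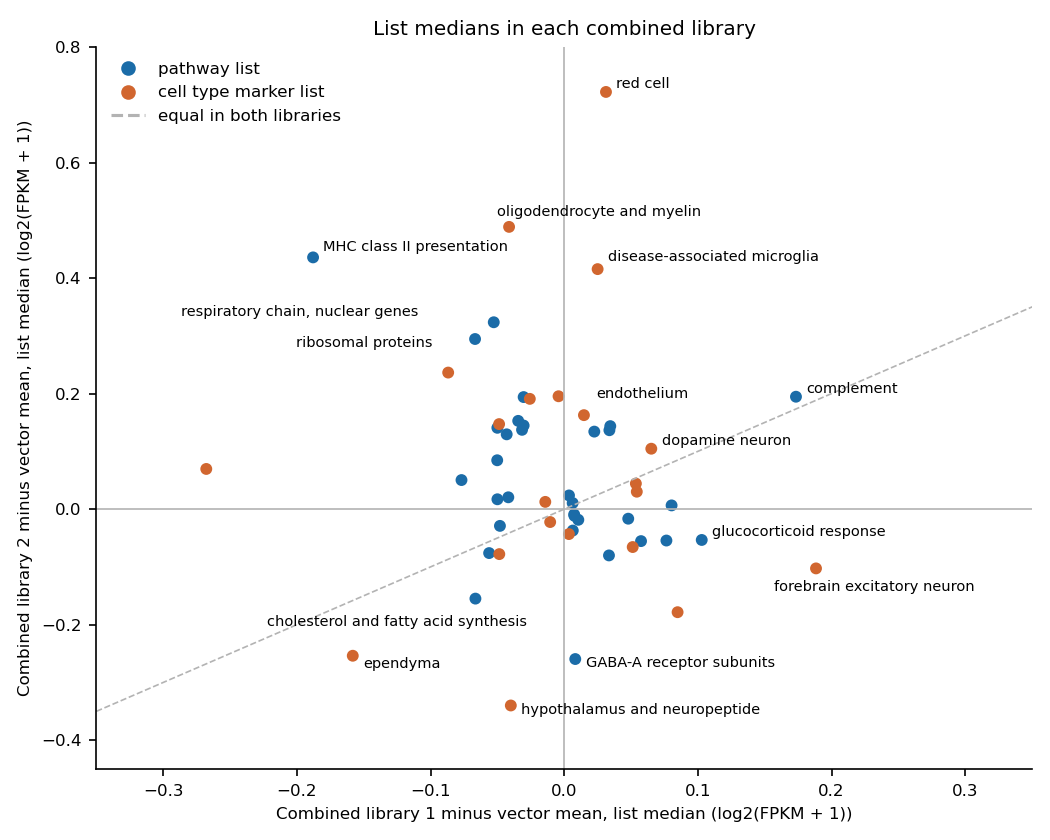
Median difference from the vector mean of each list in combined library 1 (horizontal axis) and in combined library 2 (vertical axis), both on the log2(FPKM + 1) scale, with 1 point per list and a dashed line where both are equal. The choroid plexus list, at -1.03 and 1.83, is outside the axes and not drawn; myelin (-0.04 and 0.49) and red cell genes (0.03 and 0.72) are high in library 2 only, and complement (0.17 and 0.19) and ependyma genes (-0.16 and -0.25) lie near the dashed line.

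The genes with the smallest unadjusted p among those with a mean of at least 5 FPKM and no overlap were few and mixed in function. Rpl21, a large ribosomal subunit protein (chromosome 5, 146832890 to 146837032, plus strand), had the smallest, and was at 14.7 and 12.4 FPKM in the vector libraries and at 28.5 and 30.2 in the combined libraries. The libraries of each group were close and the groups far apart, with a difference of 1.07 ± 0.11, an unadjusted p of 1.32e-04 and an adjusted p of 0.771 in limma. Rpl21 has many processed copies, so the split of its reads is uncertain, and controls were at 44.4 and 24.0 and AKG alone at 25.6 and 17.7. Lrrc10b, a leucine-rich repeat protein, was at 4.56 and 4.31 against 7.01 and 6.73, a difference of 0.53 ± 0.10. Gadd45g, a stress-response gene that acts in DNA demethylation and growth arrest, was at 13.3 and 11.8 against 17.7 and 19.1, a difference of 0.52 ± 0.11. Pcbd2, a pterin dehydratase and transcription cofactor, was at 17.8 and 16.1 against 23.9 and 26.5, a difference of 0.55 ± 0.11. In none of these did a vector library reach a combined library. The kinase gene Ptk2b was at 11.6 and 11.9 against 15.9 and 14.2, and Gng13, a G protein γ subunit, at 7.36 and 5.11 against 9.79 and 13.9. Grrp1 was at 5.52 and 5.08 against 7.31 and 9.52. With Ly6a, Ly6c1 and Ifitm2 these are the 10 genes of the higher direction.

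In the lower direction Gpc3, a heparan sulfate proteoglycan of the cell surface, had the smallest unadjusted p, 0.00487, at 6.91 and 7.27 FPKM in the vector libraries and 5.03 and 4.95 in the combined libraries, with a difference of -0.43 ± 0.10. Zfp36l1, which promotes decay of AU-rich mRNAs, was at 7.45 and 7.01 against 5.35 and 5.61, a difference of -0.34 ± 0.10. Mrap2, an accessory protein of melanocortin receptors, was at 13.8 and 13.4 against 10.9 and 10.8, a difference of -0.30 ± 0.09. The 2 libraries of each group were close for these genes, and the combined libraries were lower by less than 1 on the log2 scale. The metallothionein Mt2 differed more between libraries, at 12.6 and 9.02 against 7.35 and 4.85, a difference of -0.74 ± 0.22. Gpx3, a secreted glutathione peroxidase, was at 91.7 and 96.3 against 81.2 and 66.2, a difference of -0.35 ± 0.13. Dmrtc1a, Nbdy, Nanos1, H2-Q2 and Riok2 complete the 10, with differences of -0.32, -0.28, -0.26, -0.31 and -0.26, and H2-Q2 belongs to a family of near-identical genes, so its reads may be shared. Each of the 20 genes had an adjusted p of 1 except Rpl21.

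**Figure D4:**
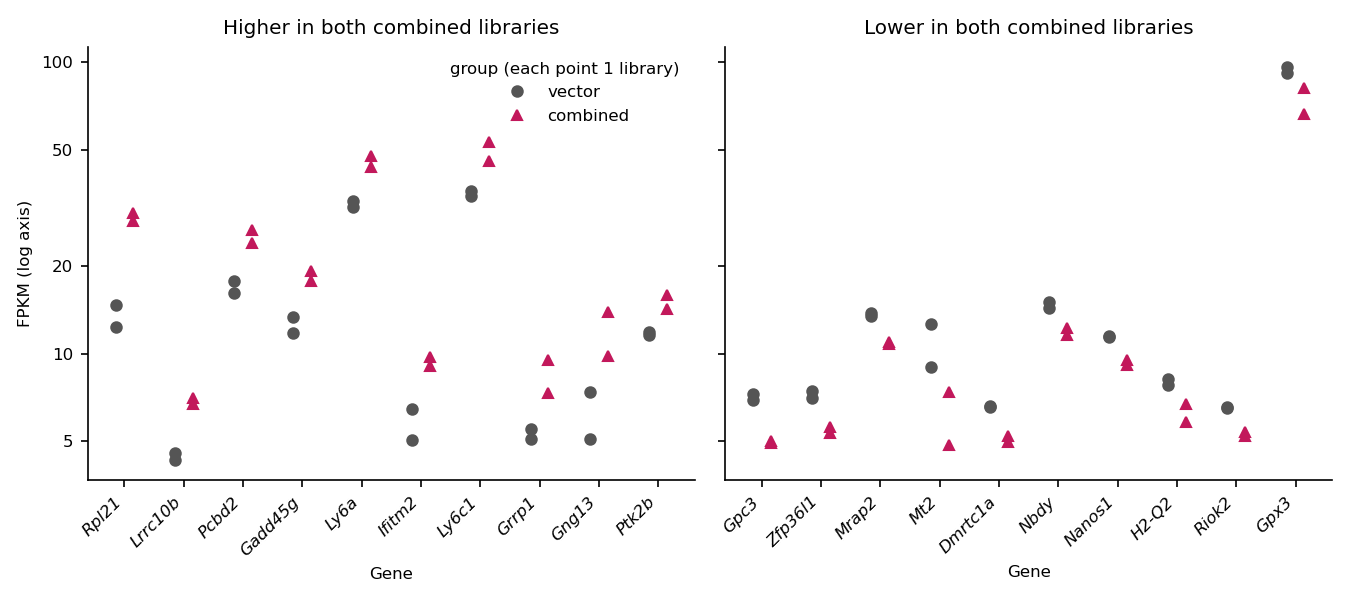
FPKM (log axis) in each vector library (circles) and combined library (triangles) of the 10 genes with the smallest unadjusted p in each direction, higher in the left panel and lower in the right. The groups do not overlap because the genes were chosen that way; Rpl21 goes from 14.7 and 12.4 to 28.5 and 30.2 FPKM, and Mt2 from 12.6 and 9.02 to 7.35 and 4.85.

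Among genes with the largest differences, several were set by 1 library. Sgk1, a kinase induced by glucocorticoids, was at 10.3 and 10.7 FPKM in the vector libraries and at 28.1 and 14.2 in the combined libraries, a difference of 0.87 ± 0.29 (unadjusted p 0.0274, adjusted p 1). Control library 1 was at 29.1, and control library 2, at 11.1, was near the vector libraries. Gapdh was at 1.44 in each vector library, at 1.68 in combined library 1 and at 69.6 in combined library 2, and with AKG alone at 2.25 and 31.99. A glycolytic enzyme gene at such a level stands beside many Gapdh copies in the mouse genome, and how its reads were split is uncertain. Rps28 was at 31.9 and 18.7 against 35.3 and 48.6, and Rpl17 at 141 and 86.4 against 65.5 and 79.3, both ribosomal protein genes with processed copies. Fabp7, a fatty acid binding protein of astrocytes and progenitors, was at 32.5 and 20.7 against 14.7 and 20.2, a difference of -0.56 ± 0.25. The mitochondrial gene mt-Co2, a subunit of cytochrome oxidase, was at 226 and 160 against 254 and 359, a difference of 0.67 ± 0.24. The gene mt-Nd3 was also above the vector group in both combined libraries, at 103.4 and 108.5 against 135.3 and 123.1. Of the 13 mitochondrial protein genes, 4 differences were positive and 9 negative. Their median was -0.06, with -0.06 for combined library 1 and -0.08 for library 2, and it was 0.08 without vector library 1.

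Glucocorticoid-responsive genes did not share a direction. Of 19 tested, 12 differences were positive and 7 negative, with a median of 0.10 for combined library 1 and -0.05 for library 2. Of the 19, Sgk1 and Ddit4 were higher and Mt2 lower at an unadjusted p under 0.05 in limma. Of all tested genes, 1.4% were higher and 0.766% lower at that threshold. Per1, a clock gene also induced by glucocorticoids, was at 7.60 and 7.96 FPKM against 11.04 and 8.26, high in combined library 1. Ciart, a repressor of the circadian clock, was at 5.75 and 5.002 against 6.76 and 6.90, a difference of 0.30 ± 0.11 (unadjusted p 0.0338), and of 19 clock genes 13 were higher and 6 lower, with a median of 0.08 for combined library 1 and 0.01 for library 2.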

How the data were processed

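RNA-seq values of 4 of 8 libraries were compared, 2 per group, and control and AKG libraries are given as levels. Libraries came from column-purified total RNA and a SMARTer mRNA kit, per the labels' protocols. Per the file headers, the authors deposited FPKM values of 54532 genes beside each gene's length. The genome builds GRCm38 and mm10 are named in the submitters' processing notes, and aligner, counter, versions and strandedness were not given in the sources used here, so overlapping and antisense genes cannot be told apart. FPKM times length gave whole reads for 100% of values (within 0.01 of a read).

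From these values, genes whose mean over the 8 libraries reached 1 FPKM were transformed to log2(FPKM + 1). They were tested with R 4.3.3 and limma 3.58.1 (lmFit, eBayes with trend, two-sided, Benjamini-Hochberg over 13716 genes, threshold 0.05), on the 4 libraries alone, with 2 residual and 3.57 prior degrees of freedom. The fit was also run on simulated data in which each gene varied on its own, which leaves out differences shared by many genes of a library. An exact permutation of 2 against 2 libraries cannot go below a two-sided p of 0.333. The unadjusted p is used only to describe and order genes. Lists (33 of pathways and 22 of cell types) are described by counts and medians, with no list test. Members and lists were chosen with earlier results of these data known.

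Named genes are, in each direction, the 10 with the smallest unadjusted p at a mean of at least 5 FPKM without overlap (no gene was called), the 5 largest differences at that filter, up to 4 members per list and a set that holds Th, Ddc and others, passing over unnamed transcripts, pseudogenes and small RNAs. Part of them is printed. Hmgcs1, Oxt, Rps27a and the motifs were chosen after their values were seen. The interaction contrast over 8 libraries was also added after seeing the data. Alternatives were other filters, a pseudocount of 0.1, quantile and median-of-ratios scaling, replicate number as a block, no trend, 6 or 8 libraries, library weights, a gene length trend removed (spline with 5 degrees of freedom), voom on recovered reads and each library left out. Promoters are RefSeq's on GRCm38.p6. Tables and figures used matplotlib 3.10.9, pandas 2.3.3, numpy 2.4.6 and Python 3.11.15.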

Additional observations from a re-analysis of the deposited data

How the results depend on the processing

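No gene was called under any of 11 settings that kept all 4 libraries without a block, and 13 were called with the replicate number as a block, including Rpl21 (adjusted p 0.0155) and Slc6a3 (adjusted p 0.00399). The labels used here do not say whether same-numbered libraries are paired. Their deviations correlated at -0.02 across genes, which cannot settle this, and 1 residual degree of freedom remained in the fit with the block. Leaving out 1 library called 1 to 2 genes, and Gapdh was called without combined replicate 1 (adjusted p 0.00291). Genes at an unadjusted p under 0.05 numbered 893 with no filter on low values, 108 at a mean of at least 5 FPKM, 186 with all 8 libraries in the fit, 171 with voom, and 250 to 1501 when 1 library was left out, with the most without combined replicate 1. The cause was not tested.

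Of the 66 genes with a printed difference, all kept their direction except Th (-0.049) without vector replicate 1, with a range of -0.049 to 0.28 over the left-out libraries. Without combined replicate 1, 18 of 55 list medians moved by more than the spread between libraries, and without combined replicate 2, 12 did. The interaction called 0 genes in every setting run except without control replicate 2, so leaving out 1 library gave 0 to 1369. Its genes at an unadjusted p under 0.05 numbered 1700 with no filter, 602 at 5 FPKM and 286 to 4564 with 1 library left out. A group left with 1 library takes its spread from the rest. With 2 libraries per group and 0.0515 to 0.0589 FPKM per read on 1 kb in the compared libraries, the precision of each difference is limited.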

Other observations

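Markers of forebrain excitatory neurons, which are not resident in the substantia nigra, held 3 of 14 genes at an unadjusted p under 0.05, all higher, against 1.4% of all tested genes. Of the 14, 8 differences were positive and 6 negative, and 5 were above the vector mean in combined library 2. Slc17a7, a vesicular glutamate transporter, was at 31.6 and 25.7 FPKM in the vector libraries and at 34.8 and 37.0 in the combined libraries, above both, with a difference of 0.32 ± 0.13. Itpka, a kinase of dendritic spines, was at 3.28 and 4.54 against 5.75 and 5.17, and Lamp5 at 3.49 and 3.01 against 4.04 and 4.71. Their differences were 0.41 ± 0.15 and 0.34 ± 0.12. The 14 tested markers of this list had a median of 0.19 for combined library 1 and -0.10 for library 2, and of -0.02 without vector library 1. The summed FPKM of all 20 listed markers was 255 and 281 in the vector libraries and 315 and 264 in the combined libraries. The part of RNA from other regions in these values was not tested.

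Rps27a, a ribosomal protein gene that also encodes ubiquitin and has processed copies, was at 47.9 and 40.0 FPKM in the vector libraries, at 44.8 and 140 in the combined libraries and at 37.5 and 52.9 with AKG alone. In controls it was at 167 and 173 FPKM. Combined library 2 was thus the 1 library of the 6 from treated mice that lay nearest to the control level. GABA-A receptor subunit genes had a median difference of -0.12, of 0.01 for combined library 1 and -0.26 for library 2, with 10 of 14 genes lower.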
